A study of Mus musculus with 3 samples.

Results

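The genes described are 9 heat shock chaperones, Hspa1a, Hspa1b, Dnajb1, Hsp90aa1, Hspa8, Hsph1, Hspb1, Hspe1 and Cryab. They were taken by name from the 32285 genes of the count matrices, in all cell types of the adult mouse lacrimal gland (LG). Droplet-based single-cell RNA sequencing had been done on 3 libraries of C57BL/6J mice aged 2 months, 1 female and 2 male, and each library pooled the 6 glands of 3 animals. The mice carried no stated transgene and received no treatment. The female library was made on another day and sequenced at another core than the male libraries, so sex, day and core cannot be told apart and no test of sex was made. All glands were minced and digested with enzymes in a warm bath before the cells were captured, so transcripts of the intact gland and transcripts made during dissociation cannot be told apart in any library.

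Heat shock proteins are molecular chaperones that hold unfolded proteins and help them reach or regain their shape. Hsp70 proteins (Hspa1a, Hspa1b and Hspa8) work in cycles with a J-domain partner such as Dnajb1 and a nucleotide exchange factor such as Hsph1, and pass some of their clients to Hsp90 (Hsp90aa1). Small heat shock proteins (Hspb1 and Cryab) bind unfolding proteins without using ATP, and Hspe1 is the lid of the mitochondrial chaperonin. Transcription of many of these genes is raised by heat shock factor 1, which binds repeated GAA units known as heat shock elements.

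After filters and doublet removal, 7652 cells of the female library and 5295 and 5397 cells of male libraries 1 and 2 were kept, with 55390678, 37641576 and 41269825 UMIs. The median cell held 3252, 1884 and 1788 UMIs. Tear-product genes took 66.7%, 83.6% and 86.3% of the UMIs, and levels are therefore given as UMIs per 1000000 UMIs outside 124 tear-product genes and the mitochondrial genes, shortened below to CPM, and differences on this denominator are called those on the scale of the levels. Cells were clustered without the chaperones and named from markers as 12 classes. The summed markers of each class stood at least 3.70-fold above their level in the remaining cells in every library. The same markers had named the classes, so this excess is no separate test of the names. The 12 classes are acinar, Car6-high, Tfrc-high, Ltf+, duct and myoepithelial cells (MECs) of the epithelium, and fibroblasts, endothelial cells, mural cells, lymphoid cells, macrophages (Mφ) and other myeloid cells outside it. The authors described Car6-high and Tfrc-high cells as acinar populations. Below, acinar cells means the class of that name alone. Of the 14 markers of other myeloid cells, 2 were at 0 in male library 1 and 1 in male library 2, and only 4 of 5 markers of Tfrc-high cells passed 2-fold in male library 2. The lymphoid class leaves out a leukocyte cluster, described at the end, whose best list was lymphoid but which scored too low for a name. Pairs of libraries shared 16, 18 and 12 cell barcodes. The 3 libraries are pools, so every spread and p-value below rests on pools and not on single animals. The p-values come from fits with a term for library. They weigh differences between classes or arms within libraries against how these varied between pools.

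The inducible Hsp70 genes Hspa1a (chr17:34969190-34972156, minus strand) and Hspa1b (chr17:34956436-34959238, minus strand) lie next to each other on mouse chromosome 17 in build GRCm38 and encode nearly the same protein. Their transcripts share 1419 windows of 90 bases, or 49.3% of the windows of Hspa1a and 52.3% of those of Hspa1b, but 0 of 411 windows within the last 500 bases, where most reads of a 3′ library fall. Since reads from the shared part cannot be assigned to either gene, their sum is also given. The promoter windows of the pair, from RefSeq for build GRCm38.p6, are shown because 296 of their 300 bases are identical, with an unbroken shared run of 201 bases, while their counts differed between cell types. Each window runs from 250 bases before to 50 bases after the annotated start, on the minus strand, Hspa1a at chr17:34972107-34972406 and Hspa1b at chr17:34959189-34959488. Capitals mark the letters that match GAANNTTC or TTCNNGAA, a heat shock element of 2 GAA units. Both patterns read the same on the opposite strand.
Hspa1a: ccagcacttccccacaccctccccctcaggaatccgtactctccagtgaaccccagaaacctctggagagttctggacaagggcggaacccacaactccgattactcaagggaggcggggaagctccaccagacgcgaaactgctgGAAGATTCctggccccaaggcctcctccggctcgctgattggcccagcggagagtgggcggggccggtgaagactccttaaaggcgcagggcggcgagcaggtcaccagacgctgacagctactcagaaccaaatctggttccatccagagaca
Hspa1b: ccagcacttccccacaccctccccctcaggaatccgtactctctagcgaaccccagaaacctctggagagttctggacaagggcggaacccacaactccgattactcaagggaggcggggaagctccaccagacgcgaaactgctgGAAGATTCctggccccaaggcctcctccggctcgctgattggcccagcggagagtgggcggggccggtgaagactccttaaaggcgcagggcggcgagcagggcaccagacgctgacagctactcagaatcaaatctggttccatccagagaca
Both windows held 1 such match, GAAGATTC, from 104 to 97 bases before the start. Matches of 2 units were present in 15.1% of the 32851 promoter windows of the reference table, and matches of 3 units in 0.603%. A match describes letters only and is not a measured binding site.

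Of the 12 classes, mural cells and Mφ had the highest mean level of Hspa1a, and acinar cells the lowest. In the female library and male libraries 1 and 2, in that order here and below, Hspa1a stood at 1031, 816 and 1751 CPM in mural cells, at 2121, 686 and 762 in Mφ and at 1138, 809 and 805 in duct cells. The means were 1199 ± 489, 1189 ± 808 and 917 ± 191 (SD, n = 3), and the libraries of these 3 classes overlapped. Acinar cells held 100, 151 and 164 CPM (138 ± 33.8), below every other class in male libraries 1 and 2, and in the female library above Car6-high cells alone (91.2). Between them came MECs at 771 ± 274, fibroblasts at 711 ± 374, endothelial cells at 535 ± 96.2 and lymphoid cells at 487 ± 237. Of the 11 neighbouring pairs in this order, 1 differed beyond its spread, which required the higher class to be higher in 3 of 3 libraries with a mean log2 difference above its SD. That pair was duct cells over MECs, by 0.28 ± 0.21 on the log2 scale.

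Hspa1b had another order of classes than Hspa1a. It was highest in Tfrc-high cells, which are marked by the transferrin receptor gene, at 1315, 1595 and 1807 CPM (1572 ± 247). Their median cell held 995, 309 and 293 UMIs outside tear-product and mitochondrial genes, fewer than in any other class in each library. Duct cells followed at 1393, 892 and 1047 (1110 ± 256), then Mφ at 1720, 410 and 562 (897 ± 716) and fibroblasts at 1553, 508 and 622 (894 ± 573). Acinar cells were again lowest in the mean, at 204, 278 and 287 (256 ± 45.6). None of the 11 neighbouring pairs differed beyond its spread. The sum of both genes was highest in Mφ at 3841, 1096 and 1324, close to Tfrc-high cells in the mean (2087 ± 1523 and 2068 ± 305), with the female library far above the male ones in Mφ and below them in Tfrc-high cells (1735, 2131 and 2336). Female values lay above both male values in 7 of 12 classes for each gene and below both in 4.

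The ratio of Hspa1b to Hspa1a UMIs compares both genes in the same cells and was read only across classes. It was 3.13, 2.97 and 3.41 in Tfrc-high cells (3.17 ± 0.22, n = 3) and 2.04, 1.84 and 1.75 in acinar cells (1.87 ± 0.15). It was below 1 in all 3 libraries of endothelial cells (0.847 ± 0.0543), other myeloid cells (0.829 ± 0.0497), Mφ (0.716 ± 0.108) and mural cells (0.618 ± 0.0892). Every Tfrc-high library lay above every library of the other 11 classes, and every mural library below every acinar, lymphoid, fibroblast, duct, Ltf+ and MEC library.

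**Figure D1:**
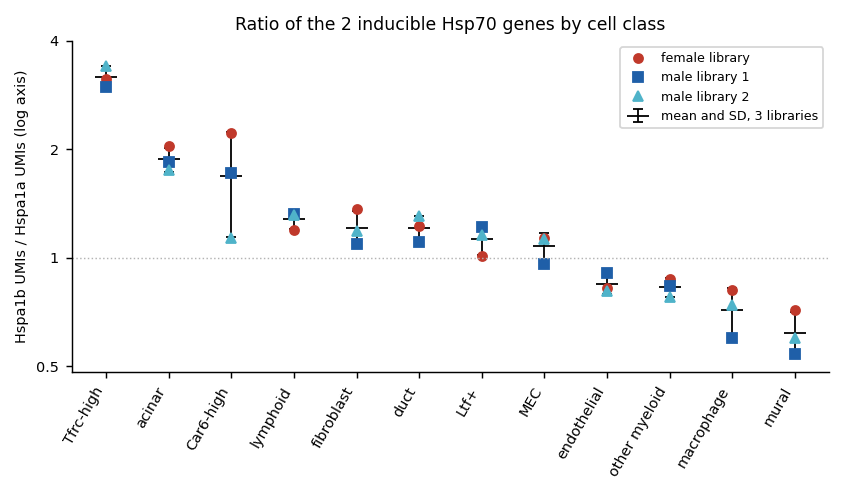
Ratio of Hspa1b to Hspa1a UMIs in each of 12 classes, 1 point per library and a bar at the mean of 3 libraries, on a log axis. Tfrc-high cells sit at about 3.17 and mural cells at about 0.618, and both genes are counted from UMIs of the same cells.

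Dnajb1 (chr8:83608193-83612653, plus strand), the J-domain protein that delivers clients to Hsp70, was highest in duct cells among the 12 classes. Its level there was 1638, 1284 and 1270 CPM (1397 ± 208). MECs came next at 303, 317 and 272 (297 ± 23.3), so that duct cells stood 2.15 ± 0.20 higher on the log2 scale within libraries. Acinar cells had 29.6, 34.9 and 34.0 (32.8 ± 2.84), and the mean of duct cells was 42.6-fold above that of acinar cells, with 36.8-fold to 55.4-fold in single libraries. The other 9 classes ranged from 84.0 in Ltf+ cells to 288 in fibroblasts. Beside duct cells over MECs, Ltf+ cells over acinar cells (0.97 ± 0.27) and other myeloid cells over Mφ (0.29 ± 0.23) differed beyond their spread, but the latter pair rested on mast cells. A mast cell cluster of 8, 5 and 8 cells within other myeloid cells, examined after the levels were seen, held 37 of 57, 9 of 24 and 8 of 26 of their Dnajb1 UMIs, at 2149, 2329 and 1819 CPM and so above duct cells in each library. Without it other myeloid cells were at 101, 86.0 and 138 CPM against 242, 115 and 125 in Mφ, lower in 2 of 3 libraries (-0.45 ± 0.62). Mural cells were at 105, 283 and 385. In cells thinned to 200 UMIs outside tear-product and mitochondrial genes, a Dnajb1 UMI was found in 20.9%, 17.5% and 16.0% of duct cells and in 1.30%, 0.731% and 0.529% of acinar cells. Without thinning the mean shares were 44.8% and 6.47%, and the median acinar cell held more UMIs (22578, 10610 and 9906) than the median duct cell (3724, 1683 and 1307.5). Free RNA, estimated from droplets without a cell, would give at most 0.0772% in duct cells and 0.0302% in acinar cells. The 2 promoter windows of Dnajb1 held 0 matches to the 2-unit patterns. The second, chr8:83608298-83608597, lies within the annotated gene. Only exact letters were searched, so an element with a changed letter would not be counted.

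Hsp90aa1 (chr12:110690605-110702728, minus strand), the stress-inducible cytosolic Hsp90, varied less. MECs had 876, 911 and 1185 CPM (991 ± 169), Mφ 1179, 841 and 889 (969 ± 183) and duct cells 790, 1045 and 883 (906 ± 129). These 3 classes overlapped. Fibroblasts were at 528 ± 63.3 and acinar cells lowest at 231, 395 and 373 (333 ± 89.0), the only neighbouring pair of 11 to differ beyond its spread.

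Hspa8 (chr9:40800984-40810087, plus strand), the constitutive Hsp70, was highest in Mφ at 2345, 2255 and 2154 CPM (2252 ± 95.8). Endothelial cells followed at 1261, 2380 and 2072 (1904 ± 578), with the female library far below the male ones. Acinar cells were lowest in the mean at 484, 1130 and 816 (810 ± 323). Other myeloid cells lay above fibroblasts and fibroblasts above lymphoid cells beyond the spread, by 0.13 ± 0.11 and 0.10 ± 0.04 on the log2 scale. Hspa8 was lower in the female library than in both male libraries in 10 of 12 classes, with a median difference of -0.53 on the log2 scale.

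Hsph1 (chr5:149614287-149636376, minus strand), the Hsp110 exchange factor of Hsp70, was the least counted member with 2881 UMIs in the 12 classes. Its levels ran from 145 ± 50.8 CPM in Tfrc-high cells (108, 203 and 125) and 130 ± 37.2 in lymphoid cells to 54.9 ± 52.9 in Car6-high cells. MECs over other myeloid cells was the only neighbouring pair of 11 to differ beyond its spread. Mφ showed 193 in the female library against 60.3 and 86.6 in the male ones. Its first promoter window held 1 match of 2 units before the start, TTCTCGAA, and a 3-unit match after it, TTCTGGAAAGTTC.

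Hspb1 (chr5:135887919-135889563, plus strand), a small heat shock protein that also binds the actin cytoskeleton, was high in 4 classes and low in the others. Endothelial cells had 1744, 1795 and 1959 CPM (1832 ± 112), MECs 1624, 1801 and 1975 (1800 ± 176), mural cells 1062, 1727 and 1296 (1361 ± 337) and duct cells 1091, 1416 and 1343 (1283 ± 171). Fibroblasts, next in order, had 128 ± 23.8, and duct cells stood 3.15 ± 0.05 above them on the log2 scale. Among the remaining classes the mean level was as low as 17.3 in lymphoid cells and 13.3 in other myeloid cells, and 0 UMIs were counted in the Car6-high cells of male library 1. Other myeloid cells rested on 1, 1 and 4 UMIs, of which the free RNA estimate was up to 67.1%. A UMI of Hspb1 was found in 23.1%, 27.8% and 30.1% of thinned endothelial cells. In Mφ the share was 0.414%, 1.34% and 0.979%. The median cell of the first held 2538, 1385.5 and 1127.5 UMIs and of the second 3497, 1730 and 1428.5, and the shares without thinning averaged 62.4% and 2.65%. Free RNA would give at most 0.105% in endothelial cells and 0.0776% in Mφ.

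The promoter window of Hspb1 (RefSeq, GRCm38.p6, chr5:135887669-135887968, plus strand) is shown because its level separated 4 classes from all others. Capitals mark the same letters as above.
Hspb1: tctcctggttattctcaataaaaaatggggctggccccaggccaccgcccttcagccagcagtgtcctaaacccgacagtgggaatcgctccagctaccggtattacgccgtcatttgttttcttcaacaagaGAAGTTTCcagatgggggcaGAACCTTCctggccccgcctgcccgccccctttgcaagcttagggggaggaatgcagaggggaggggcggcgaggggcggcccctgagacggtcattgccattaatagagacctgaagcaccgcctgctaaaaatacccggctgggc
It held 2 matches of 2 units in capitals, GAAGTTTC from 117 to 110 and GAACCTTC from 97 to 90 bases before the start.

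Hspe1 (chr1:55088132-55091307, plus strand), the mitochondrial co-chaperonin, had the flattest levels. Lymphoid cells were highest at 469, 556 and 507 CPM (511 ± 43.9), followed by Mφ at 395 ± 42.2, and the difference of 0.36 ± 0.21 on the log2 scale was beyond its spread. Car6-high cells were lowest at 202 ± 133, so that the highest mean was 2.53-fold the lowest, but this mean rested on 17, 15 and 3 UMIs, of which the free RNA estimate was 11.4%, 20.2% and 64.2%. The annotation lists 6 pseudogenes or related loci of this gene by name, with which it can share reads. Its window (RefSeq, GRCm38.p6, chr1:55087898-55088197, plus strand) is shown for its contrast of several matches and the smallest fold between classes.
Hspe1: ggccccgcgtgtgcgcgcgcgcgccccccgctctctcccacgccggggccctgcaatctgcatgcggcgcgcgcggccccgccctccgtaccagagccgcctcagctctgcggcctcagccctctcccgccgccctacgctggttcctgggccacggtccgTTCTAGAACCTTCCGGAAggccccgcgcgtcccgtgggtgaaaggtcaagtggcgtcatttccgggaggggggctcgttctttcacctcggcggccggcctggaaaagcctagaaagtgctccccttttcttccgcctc
The 3 matches of 2 units, TTCTAGAA, GAACCTTC and TTCCGGAA, overlap between 89 and 72 bases before the start and form 2 overlapping matches of 3 units.

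Cryab (chr9:50751325-50756636, plus strand), alpha B crystallin, a small heat shock protein known from lens and muscle, marked Ltf+ epithelial cells, which carry the lactoferrin gene. Its level there was 3393, 7650 and 5190 CPM (5411 ± 2137), lowest in the female library. Car6-high cells, next in order, had 213, 1343 and 1065 (873 ± 589), and Ltf+ cells were higher by 2.88 ± 0.87 on the log2 scale. Duct cells had 651, 747 and 696 (698 ± 48.3), mural cells 463, 565 and 630 (553 ± 84.5), MECs 331 ± 41.1 and acinar cells 153 ± 33.1. In this order duct over mural cells, mural cells over MECs and MECs over acinar cells each differed beyond the spread. Mφ had 12.8, 31.0 and 46.3, of which the free RNA estimate was up to 116%, and no fold against them is given.

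In thinned Ltf+ cells a Cryab UMI was found in 31.7%, 65.4% and 56.0%, against 0.207%, 0.594% and 0.489% of Mφ, where free RNA alone would give 0.152%, 0.718% and 0.416%. The Mφ share is thus at the background, and without thinning the shares averaged 86.7% and 2.32%. The median Ltf+ cell held 7985, 2503 and 2213 UMIs. The free RNA estimate was 31.8% to 154% of the Cryab UMIs of endothelial, lymphoid, Mφ and other myeloid cells, over 50% in 3 of 3 libraries in lymphoid cells, so Cryab in these classes is not read as expression. For the other 8 members the median estimate over classes and libraries was 1.06% to 10.9%, and the highest was 6.12% to 25.6% for 6 of them, 64.2% for Hspe1 and 67.1% for Hspb1. Cryab was lower in the female library than in both male libraries in 10 of 12 classes. The 12 include the classes where it is not read as expression. In the free RNA Cryab was also lower in the female library, at 178 CPM against 371 and 258.

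**Figure D2:**
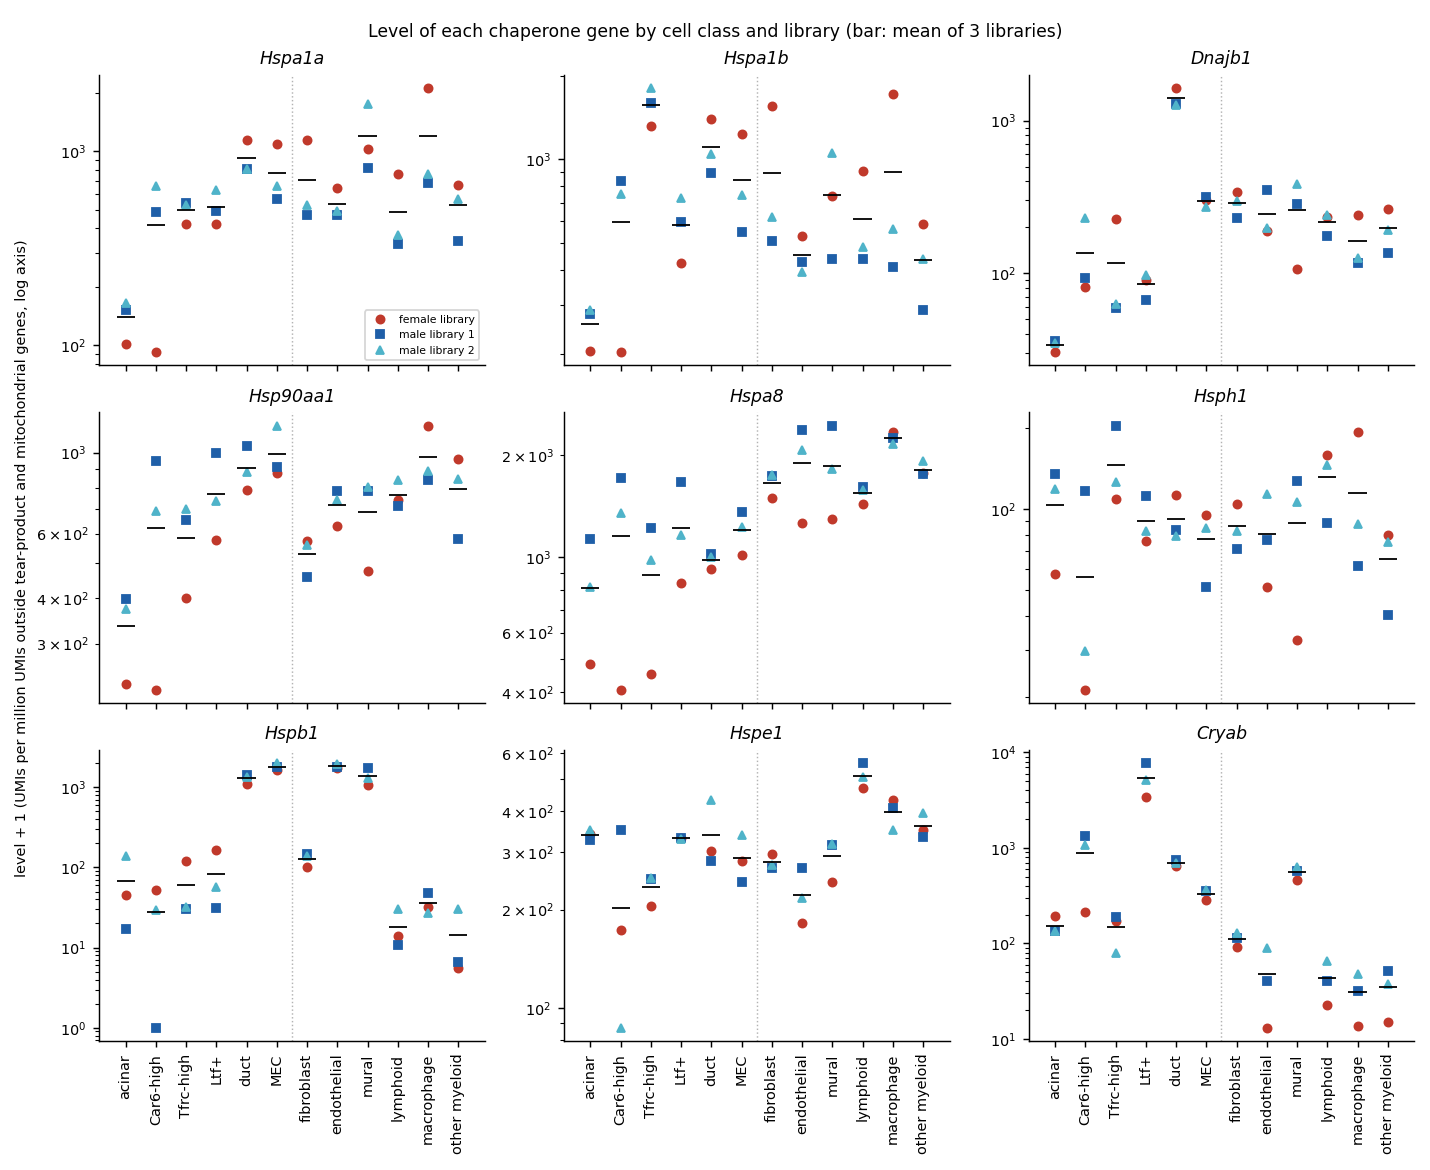
Level of each of the 9 members in 12 classes, as CPM + 1 on a log axis, with 1 point per library and a bar at their mean. Dnajb1 peaks in duct cells (1397), Cryab in Ltf+ cells (5411) and Hspb1 in endothelial cells (1832) and MECs (1800), and libraries of most other neighbouring classes overlap.

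In all, 18 of 99 neighbouring pairs differed beyond their spread. When levels were instead taken per UMI of all genes, 4 of 9 members kept the same highest class (Dnajb1, Hsp90aa1, Hspa8 and Cryab). Acinar cells, whose median cell held 87.6% to 91.6% tear-product UMIs, were lowest for 7 members on that scale.

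To compare the members between classes within libraries, UMIs were summed per class and library. Each class was set against the mean of the other classes of its compartment in edgeR. A term for library took out differences between the libraries. All 9 members were among the 8472 genes that passed the filter on low counts. In the 6 epithelial classes 28 of 54 member comparisons were called at an adjusted p under 0.05, 14 higher and 14 lower, where 29% of all gene comparisons were called. In duct cells 7 of 9 members were higher and 0 lower, against 24.4% of all genes called higher. These were Hspa1a by 1.38 (SE 0.25, adjusted p = 2.00e-05), Hspa1b by 0.94 (SE 0.26, adjusted p = 0.00344), Dnajb1 by 3.91 (SE 0.19, adjusted p = 7.85e-19), Hsp90aa1 by 0.76, Hspb1 by 3.63 (SE 0.31, adjusted p = 1.05e-12), Hspe1 by 0.45 and Cryab by 0.67 on the log2 scale. Hspa8 (0.18) and Hsph1 (0.30) were not called. The call of Hspe1 was lost without male library 2 (adjusted p = 0.324) and that of Cryab without either male library (adjusted p = 0.0752 and 0.0532) or with the free RNA of 500 to 2000 UMI barcodes subtracted (0.84, adjusted p = 0.0740), and both were lost on the scale of the levels. The median of the 9 members was 0.76 in duct cells and 0.18 over all genes.

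In acinar cells, which belong to the mean that duct cells were compared with, 6 of 9 members were lower and 1 higher, where 12% of all genes were called lower and 29.1% higher. Dnajb1 fell by 2.39 (SE 0.27, adjusted p = 1.03e-09), Cryab by 1.71, Hspa1a by 1.67 (SE 0.29, adjusted p = 1.02e-05), Hspa1b by 1.35, Hspb1 by 1.45 and Hsp90aa1 by 0.82. Without the female library Hspb1 was not called (-0.55, adjusted p = 0.422), and without 1 acinar cell of male library 2, described with the divisions of cells, it was at -2.67. Hspe1 was called higher by 0.65, a call that was lost on the scale of the levels (0.32, adjusted p = 0.0837) and turned to -1.59 when all UMIs were the denominator. The median member stood at -1.35 and the median gene at 0.20.

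MECs had 4 members higher, Hspb1 by 4.12 (SE 0.30, adjusted p = 4.13e-15), Dnajb1 by 1.15, Hspa1a by 0.96 and Hsp90aa1 by 0.83, and Cryab lower at -0.72, where 25.6% of all genes were called higher and 15.2% lower. The Cryab call was lost without either male library (adjusted p = 0.248 and 0.0657) and with that free RNA subtracted (-0.64, adjusted p = 0.232), and on total UMIs the value turned to 0.48. In Ltf+ cells Cryab was higher by 3.94 (SE 0.21, adjusted p = 6.50e-19), and Dnajb1 (-1.14) and Hspb1 (-1.28) were lower, against 15.4% of all genes called higher and 3.79% lower. That of Hspb1 was lost without either male library (adjusted p = 0.101 and 0.213). In Tfrc-high cells Hspa1b was higher by 1.06 (SE 0.27, adjusted p = 0.00239) while Hspa1a differed by -0.20 (adjusted p = 0.766), and Cryab (-2.49), Hspb1 (-2.02), Hspe1 (-0.68) and Hspa8 (-0.63) were called lower, where 14.4% of genes were called higher and 15.8% lower. Of these, Hspa8 and Hspe1 were not called on the scale of the levels (-0.29 and -0.33), nor Hspa8 without male library 2 (adjusted p = 0.0662) and Hspe1 without male library 1 or the female library (adjusted p = 0.0995 and 0.0691). In Car6-high cells 1 member was called, Hspb1 at -3.00 (adjusted p = 0.0144), where 1.42% of genes were called lower.

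Outside the epithelium 22 of 54 member comparisons were called, 12 higher and 10 lower, against 28.7% of all gene comparisons. In Mφ 6 of 9 members were higher, where 25.1% of all genes were. Hspa1a was higher by 1.38 (SE 0.24, adjusted p = 6.04e-06), Hsp90aa1 by 1.07 (SE 0.17, adjusted p = 2.37e-06), Hspa1b by 1.07, Hsph1 by 1.15, Hspa8 by 0.95 and Hspe1 by 0.88, and Dnajb1 differed by 0.08 (adjusted p = 0.916). Without the female library Hsph1 in Mφ was at 0.16 (adjusted p = 0.778). On the scale of the levels Hspa1a and Hsp90aa1 stayed called in Mφ, and Hspa1b (0.51), Hspa8 (0.41), Hsph1 (0.60) and Hspe1 (0.34) did not. Hspb1 (-1.48) was lower in Mφ, where 8.84% of genes were, a call lost without male library 2 (adjusted p = 0.159). Cryab met the threshold in Mφ too (-1.04), but its UMIs there were at the free RNA background, so this is not read as a difference in expression. Its call was lost without male library 1 (adjusted p = 0.118) and with the free RNA of 500 to 2000 UMI barcodes subtracted (-1.64, adjusted p = 0.0550).

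Endothelial cells had Hspb1 higher by 4.67 (SE 0.30, adjusted p = 8.02e-17) and Hspe1 (-0.88) lower, where 21.6% of genes were called higher and 8.68% lower. Cryab (-1.26) met the threshold in endothelial cells but is not read as expression there, and its call was lost without male library 1 (adjusted p = 0.0986) and with the free RNA of 10 to 100 UMI barcodes subtracted (-0.48, adjusted p = 0.932), and kept with that of 500 to 2000 UMI barcodes subtracted (-1.97, adjusted p = 0.0450). Mural cells had Hspb1 higher by 3.72 (SE 0.37, adjusted p = 1.44e-10) and Cryab by 3.21 (SE 0.36, adjusted p = 1.82e-09), where 11.1% of genes were called higher and 9.03% lower. The Cryab value is set against a mean in which 4 of 5 classes were near the background, and it was 4.36 with the free RNA of 500 to 2000 UMI barcodes subtracted and 8.62 with that of 10 to 100 UMI barcodes. The calls of Hsp90aa1 (-0.76), Hspa8 (-0.61) and Hspe1 (-0.82) as lower in mural cells were absent on the scale of the levels (-0.19, -0.03 and -0.27), and each was also lost without at least 1 library. In lymphoid cells Hspe1 was higher by 0.82 (adjusted p = 0.000123) and Hsph1 by 0.87, the latter lost without male library 2 (adjusted p = 0.115) and without the female library (adjusted p = 0.198), and Hspb1 was lower at -3.32, where 15.8% of genes were called higher and 10.5% lower. Fibroblasts had Cryab higher by 0.90 and Hsp90aa1 lower at -0.61, where 27.6% of genes were called higher and 12.8% lower. This Cryab value too is set against a mean in which 4 of 5 classes were near the background, so its size is not read. Hsp90aa1 lost its call without either male library (adjusted p = 0.0670 and 0.117) and Cryab without the female library (adjusted p = 0.0529), and Cryab was at 1.87 and 5.40 with the one and the other free RNA subtracted. In other myeloid cells Hspb1 was lower at -3.73, where 6.62% of genes were called lower.

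The mean of the epithelial classes differed from the mean of the non-epithelial classes for 6 of 9 members, where 47.4% of all genes were called, 25.3% higher and 22.1% lower. Cryab was higher in the epithelium by 2.77 (SE 0.18, adjusted p = 4.50e-16), and by 3.72 with the free RNA of 500 to 2000 UMI barcodes and 7.22 with that of 10 to 100 UMI barcodes subtracted. Hspa8 by -1.18 (SE 0.10, adjusted p = 2.35e-13), Hspa1a by -0.92, Dnajb1 by -0.72, Hspe1 by -0.51 and Hsp90aa1 by -0.49 were lower, the last pair not called on the scale of the levels (-0.22 and -0.19).

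**Figure D3:**
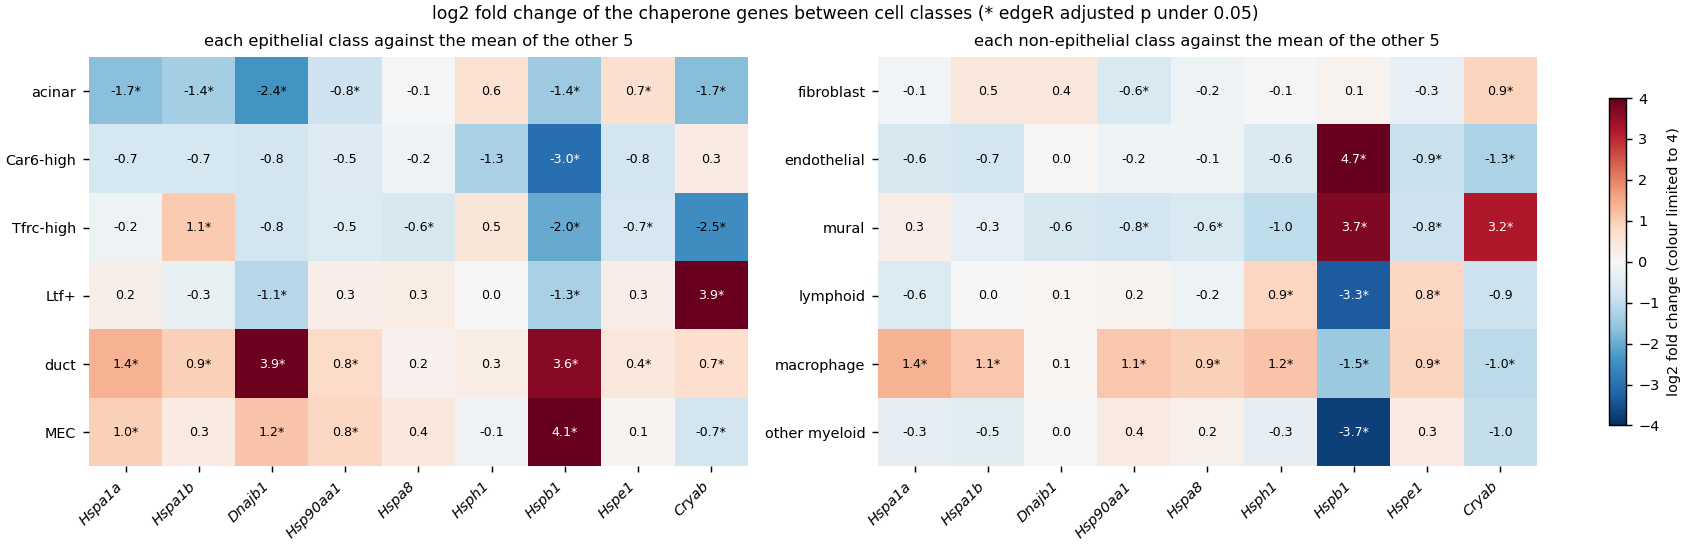
Log2 fold change of each member in each class against the mean of the other classes of its compartment, in edgeR, with called comparisons marked. Duct cells are higher for 7 of 9 members and acinar cells lower for 6 of 9, while Cryab in Ltf+ cells (3.94) and Hspb1 in endothelial cells (4.67) and MECs (4.12) stand out.

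Other genes of the chaperone network, a list of 56 genes of which 50 were tested, did not follow the members in every class. In acinar cells 27 of 50 were higher and 2 lower, where 29.1% and 12% of all genes were, among them Dnajb11 (2.07) and Dnajc3 (1.98), J-domain proteins of the endoplasmic reticulum, and Bag1 (1.44), while Serpinh1 (-2.97), the collagen chaperone, and Hspb8 (-1.23) were lower. In duct cells 6 were higher, with Serpinh1 (2.57), Hspa4l (2.29), an Hsp110 relative, and Hspb8 (2.00) foremost, and 6 lower, where 24.4% and 13.7% of all genes were. Mφ had 18 higher, including Ahsa1 (1.29), an activator of Hsp90, Hspa5 (0.93), the Hsp70 of the endoplasmic reticulum, and Stip1 (0.87), which links Hsp70 to Hsp90, and 2 lower, where 25.1% and 8.84% of all genes were. The list's median was 0.46 in acinar cells, 0.03 in duct cells and 0.32 in Mφ. Tfrc-high cells had 4 higher, with Fkbp5 (2.03) foremost, and 16 lower, where 14.4% and 15.8% of all genes were.

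The genes whose pattern over 36 points (12 classes in 3 libraries, after the library mean was taken out) was most like that of each member were listed as a description only, since the points share suspensions and counting depth. For Hspa1a these were Zfp36 (r = 0.78), Ski (0.77) and Junb (0.75), for Hspa1b Jun (0.72), Tnrc6c (0.70) and Dusp1 (0.66), and for Dnajb1 Gadd45b (0.82), Gm26802 (0.79) and Fosb (0.79). Hspb1 was closest to Epas1 (0.95), Ptpn14 (0.95) and Cav2 (0.92). Cryab was closest to Gsta3 (0.88), Mfap3l (0.85) and Csrp2 (0.84). The nearest genes reached 0.69 for Hsp90aa1 (Myh9), 0.83 for Hspa8 (Cdc42), 0.61 for Hsph1 (Polr2a) and 0.74 for Hspe1 (Trmt112). Among the members themselves the closest pairs were Hspa1a with Hsp90aa1 (0.80) and Hspa1a with Hspa1b (0.74), and the least alike was Hspa8 with Cryab (-0.37).

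Immediate early genes such as Fos and Jun are transcribed within minutes of many stimuli. To see whether the members moved with them within a cell type, cells of each class and library were divided at the median number of UMIs of 28 such genes, and the cells above were compared with the rest. Of 60 member comparisons in 7 classes 29 were higher in the cells above the median and 1 lower, where 4.84% of all gene comparisons were higher and 9.75% called. The 28 genes were left out of the test. Without the term for library 1 of these 30 calls remained, that of Dnajb1 in duct cells.

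In duct cells Dnajb1 stood at 2741, 1981 and 2004 CPM in the cells above the median and at 440, 474 and 388 in the rest. The arms did not overlap, and the difference was 2.59 (SE 0.12, adjusted p = 1.17e-98), where 6.5% of all genes were higher. Hspa1a (0.18, adjusted p = 0.430) and Hspa1b (0.01, adjusted p = 0.985) were not called in the same cells, with Hspa1a at 1206, 760 and 797 against 1065, 868 and 815. The arms differed in their share of 2 duct clusters, and within 1 of these the levels of Hspa1a and Hspa1b lay above in the cells past the median in 3 of 3 libraries, a difference that was not tested. Hsp90aa1 (0.61), Hspb1 (0.57) and Hspa8 (0.50) were called, Hsp90aa1 not without male library 1 (adjusted p = 0.243), Hspb1 not without the female library (adjusted p = 0.101), and Hspa8 neither without male library 1 (adjusted p = 0.0732) nor without the female library (adjusted p = 0.0709).

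Fibroblasts had 7 of 9 members higher, where 4.58% of all genes were. Hspa1a was at 1676, 597 and 622 CPM against 673, 358 and 441, a difference of 1.03 (SE 0.11, adjusted p = 1.64e-10), Dnajb1 differed by 1.15 (SE 0.13, adjusted p = 2.01e-09), Hspa1b by 0.91, Hspa8 by 0.65 and Hsp90aa1 by 0.60. In every library the cells above the median were higher for these 5 genes. Hsph1 (0.68) and Hspb1 (0.59) rested on the female library, without which they were at -0.44 and -0.05. Endothelial cells had 6 of 8 members higher, where 5.3% of all genes were, led by Dnajb1 (1.12, SE 0.18, adjusted p = 1.97e-08) and Hspa1a (1.03, SE 0.15, adjusted p = 1.67e-09). Hspa1b (0.67), Hsp90aa1 (0.79), Hspb1 (0.53) and Hspa8 (0.44) were the others, of which Hspa1b was not called without the female library (adjusted p = 0.170) and Hspa8 neither without it (adjusted p = 0.123) nor without male library 1 (adjusted p = 0.131). MECs had Dnajb1 (1.91), Hspa1a (0.92), Hspa1b (0.75) and Hsp90aa1 (0.66) higher, where 0.74% of genes were, and without the female library they were at 0.89, 0.80, 0.41 and 0.72 and none was called (adjusted p = 0.371 to 0.764). Hspa1b in MECs was lower in the cells above the median in male library 1 (471 against 625 CPM).

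In acinar cells 6 of 9 members were higher and Hspe1 lower, where 9.23% of all genes were higher and 11.4% lower. Hspa1b was at 286, 495 and 450 CPM against 146, 202 and 176 (1.04, SE 0.10, adjusted p = 1.36e-10) and Hspa1a at 157, 235 and 238 against 60.7, 120 and 114 (0.93, SE 0.12, adjusted p = 1.34e-07). The arms of neither gene overlapped. Of the other calls, Hsp90aa1 (0.48), Hsph1 (0.44), Hspb1 (2.38) and Cryab (0.34) were lost without male library 2 and Hspe1 (-0.27) without either male library, and in the female library Hspe1 was not lower (341 against 337 CPM). The direction of these 5 values turned under other settings. The list without Fos, Jun, Junb, Egr1 and Atf3 gave Hsp90aa1 -0.068, Hsph1 -0.0088, Hspb1 -0.99 and Cryab -0.19, thinning to 1000 UMIs gave Hspb1 -1.34 and Cryab -0.35, and total UMIs gave Hspe1 0.20. The acinar arms also differed in tear-product UMIs, at a median 84.8%, 80.3% and 86.2% in the cells above the median and 91.2%, 90.2% and 92.5% in the rest, and in mitochondrial UMIs, at 1.61%, 5.20% and 2.44% against 0.551%, 0.994% and 0.482%. Their part in the result was not tested. Mφ had 1 of 9 members higher, Hspa1a by 0.85 (SE 0.15, adjusted p = 0.0149), where 0.104% of all genes were called. Its level was 2335, 1027 and 1285 CPM against 1987, 473 and 483, with the smallest difference in the female library, without which it was at 1.31 and not called (adjusted p = 0.229). Lymphoid cells had 1 of 7, Hsp90aa1 by 0.45 (adjusted p = 0.0455), where 0.955% of genes were higher, and its call was lost without any 1 library (adjusted p = 0.113 to 0.798). The fold change of Hspe1 ran from -0.27 to 0.14 over the 7 classes, and its only call was the lower one in acinar cells.

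The cells were then divided by Hspa1a and Hspa1b themselves, at least 1 UMI of either against none after thinning, in the 5 classes with enough cells, and the other 7 members were tested. Of 35 comparisons 21 were higher and 0 lower, where 0.895% of all gene comparisons were higher and 3.26% called. Without the term for library 0 of the 21 calls remained, and DESeq2 kept 10. In Mφ 6 of 7 members were higher in cells with Hspa1a or Hspa1b (696, 131 and 128 cells against 754, 542 and 485), where 0.425% of all genes were higher.

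Hsph1 in Mφ was at 311, 197 and 296 CPM against 97.1, 34.8 and 41.7, a difference of 1.97 (SE 0.19, adjusted p = 2.11e-13). Dnajb1 was at 364, 284 and 319 against 143, 83.9 and 83.4 (1.53, SE 0.16, adjusted p = 3.32e-11). Hsp90aa1 was at 1565, 1561 and 1845 against 865, 706 and 684 (1.08, SE 0.11, adjusted p = 3.22e-12). For these 3 genes the 2 arms did not overlap, and each call held without any 1 library. Hspb1 differed by 2.42 (SE 0.29, adjusted p = 1.86e-09) at low levels of 55.7, 142 and 102 against 11.3, 28.7 and 9.81. The summed endothelial markers, of cells rich in Hspb1, were at 13.9, 10.9 and 0 CPM in the Mφ with Hspa1a or Hspa1b and at 10.8, 26.6 and 19.6 in the rest. Markers of MECs, mural cells and duct cells, also rich in Hspb1, are not given here. The part of RNA from such cells was not tested. Hspa8 (0.41) was not called without either male library (adjusted p = 0.151 and 0.847) and Hspe1 (0.50) not without any 1 library (adjusted p = 0.160 to 0.653). Cryab was at 0.04 and not called.

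The Mφ with Hspa1a or Hspa1b drew unequally on the subsets that Mφ formed when clustered again without the chaperones, examined after the calls were seen. Subset 0 held 31.8%, 18.3% and 28.1% of them and 18.0%, 14.6% and 13.2% of the rest, subset 3 17.8%, 20.6% and 18.0% against 11.7%, 7.75% and 10.7%, and subset 4 4.17%, 2.29% and 7.81% against 12.1%, 12.0% and 11.8%. Only subsets 0 and 3 had at least 20 cells in both arms of every library. Within subset 0 the cells with Hspa1a or Hspa1b had Dnajb1 at 472, 709 and 531 CPM against 202, 165 and 188 (1.51 ± 0.43 on the log2 scale). Hsp90aa1 was at 2040, 2453 and 2655 against 1331, 1213 and 1089 there (0.96 ± 0.33), and Hsph1 differed by 2.03 ± 1.18. In subset 3 these 3 genes were above in 3 of 3 libraries too, Hsp90aa1 by 0.75 ± 0.48, Hsph1 by 2.29 ± 1.59 and Dnajb1 by 2.25 ± 2.64, the latter pair against a library at 0. Hspa8 and Hspe1 were above in 3 of 3 libraries within subset 0 and in 1 of 3 within subset 3. These differences were not tested. Of the network genes in Mφ as a whole Bag3 (1.13), which joins Hsp70 to small heat shock proteins, Dnaja1 (0.62) and Hsp90ab1 (0.43) were higher, 3 of 39 tested.

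In duct cells Dnajb1 was not called between cells with and without Hspa1a or Hspa1b (0.11, SE 0.10, adjusted p = 0.999), at 1549, 1754 and 1304 against 1684, 1104 and 1261 CPM. Cryab was called, at 937, 1189 and 1352 against 503, 578 and 477 (1.03, SE 0.12, adjusted p = 6.83e-16), and Hspb1, at 1463, 2185 and 2294 against 900, 1122 and 1027 (0.87, SE 0.10, adjusted p = 1.68e-15). Hsph1 (0.95), which in male library 2 was lower in the cells with Hspa1a or Hspa1b (72.4 against 80.9), and Hsp90aa1 (0.62) were called too, so 4 of 7, where 0.296% of all genes were higher, and Hsp90aa1 was not called without male library 1 (adjusted p = 0.144) or the female library (adjusted p = 0.0691).

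The arms of both divisions drew on the 2 larger duct clusters in unequal shares, examined here as description after the calls were seen. The first had Hspa1a at 1234 ± 39.3 CPM, Cryab at 947 ± 312, Hspb1 at 1494 ± 404, Hsph1 at 132 ± 24.3 and Dnajb1 at 940 ± 142. The second, led by Smoc2, F3 and Dnajb1, had them at 666 ± 213, 534 ± 103, 1174 ± 45.3, 63.4 ± 34.6 and 1841 ± 498. The second held 70.5%, 83.4% and 77.6% of the duct cells above the immediate early gene median and 18.6%, 23.9% and 21.5% of the rest, and 37.7%, 41.7% and 34.3% of the cells with Hspa1a or Hspa1b and 47.0%, 57.9% and 54.5% of those without. Within the first cluster Dnajb1 was above its level in the rest in 3 of 3 libraries in the immediate early gene division, by 3.07 ± 0.48 on the log2 scale, and within the second by 1.47 ± 0.52. In the same division Hspa1a (0.78 ± 0.18), Hspa1b (0.76 ± 0.58), Hsp90aa1 (1.24 ± 0.61), Hspb1 (1.05 ± 0.11), Cryab (1.12 ± 0.16) and Hspe1 (0.54 ± 0.33) were above too within the first cluster in 3 of 3 libraries, while within the second Hspa1a (0.36 ± 0.49) and Hspa1b (0.01 ± 0.45) were above in 2 of 3 and Cryab (-0.24 ± 0.42) in 1 of 3. These differences within clusters were not tested. Between cells with and without Hspa1a or Hspa1b, Cryab differed by 0.70 ± 0.19 within the first and 1.46 ± 0.51 within the second cluster and Hspb1 by 0.77 ± 0.08 and 1.01 ± 0.47, each above in 3 of 3 libraries. Dnajb1 differed by 0.66 ± 0.14 within the first cluster, above in 3 of 3 libraries, and by 0.22 ± 0.67 within the second.

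MECs with Hspa1a or Hspa1b had Dnajb1 (1.82), Hsp90aa1 (0.87), Hspb1 (0.75) and Hspa8 (0.55) higher, where 0.375% of all genes were, and without the female library they were at 1.21, 0.74, 0.60 and 0.53 and none was called (adjusted p = 0.459 to 0.804). Fibroblasts had Dnajb1 (0.89, adjusted p = 0.000243) alone, where 0.171% of genes were higher, and in male library 2 its level was lower in the cells with Hspa1a or Hspa1b (262 against 304). That call was lost without the female library (0.37, adjusted p = 0.938).

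In acinar cells 6 of 7 members were called higher, where 2.21% of all genes were, but 1 cell bore on most of these calls. This acinar cell of male library 2 held 44937 UMIs, 7545 of them outside tear-product and mitochondrial genes, and 933 of the latter, 12.4%, came from the 9 members. They were 298 of Hspb1, 202 of Hsp90aa1, 169 of Hspa8, 89 of Cryab, 68 of Hspa1b, 56 of Hsph1, 34 of Hspe1, 9 of Dnajb1 and 8 of Hspa1a. Without it Hspb1 of the acinar cells of that library fell from 139 to 19.7 CPM, and that of the acinar cells with Hspa1a or Hspa1b from 1735 to 18.1 against 19.8 in the rest. The calls of Hsp90aa1, Hsph1 and Cryab in the division by immediate early genes and of Dnajb1, Hspa8, Hsph1, Hspb1 and Cryab in that by Hspa1a and Hspa1b were lost with it, and Hspb1 in the former was at 0.62. The remaining call, Hsp90aa1 in the division by Hspa1a and Hspa1b, went from 1.19 to 0.41 (adjusted p = 0.0330) without the cell and was lost without male library 2 (adjusted p = 0.501). The acinar arms of this division also differed in tear-product UMIs, at a median 83.3%, 77.6% and 80.1% in the cells with Hspa1a or Hspa1b and 89.6%, 88.5% and 91.9% in the rest, and in mitochondrial UMIs, at 2.55%, 5.59% and 4.36% against 0.726%, 1.80% and 0.598%. Their part in the result was not tested.

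**Figure D4:**
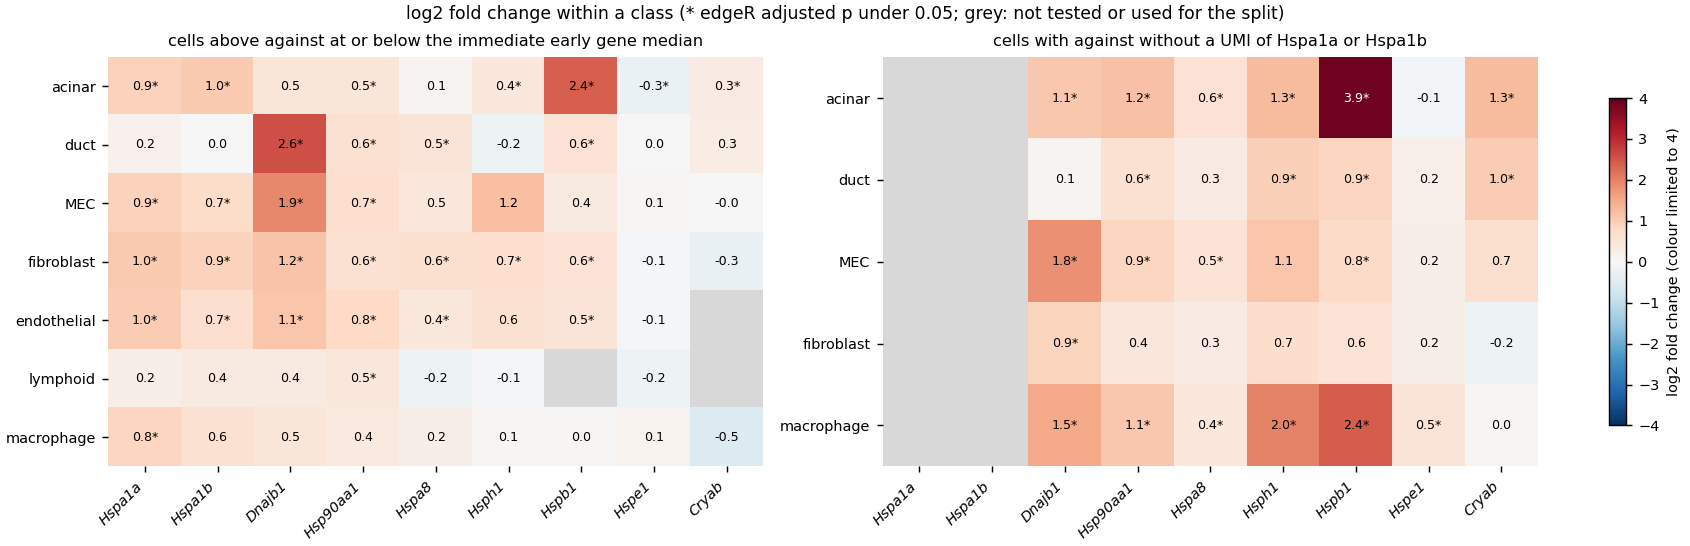
Log2 fold change of each member between cells above and at or below the median of immediate early gene UMIs, and between cells with and without a UMI of Hspa1a or Hspa1b, by class, with called comparisons marked. Dnajb1 in duct cells is at 2.59 in the first and 0.11 in the second, while 6 of 7 members are higher in Mφ in the second.

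Mφ clustered again without the chaperones gave 9 subsets with at least 20 cells in every library. Of 63 comparisons of 7 members 17 were called, 10 higher and 7 lower, where 16.9% of all gene comparisons were called. Hspb1 and Cryab did not pass the filter on low counts, which left 1770 genes. Subset 0, with 357, 103 and 100 cells, was left unnamed, since it was led by Cx3cr1, Lilra5, Slamf9 and Ctss and not by the markers of a named subset.

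In subset 0, 5 of 7 members were higher, where 2.15% of all genes were. Dnajb1 was at 365, 282 and 310 CPM in its cells (1.44, SE 0.21, adjusted p = 0.000109), Hsp90aa1 at 1759, 1480 and 1646 (1.02, SE 0.17, adjusted p = 0.000417) and Hspa1b at 2485, 717 and 1187 (1.27, SE 0.19, adjusted p = 0.000115). Hspa1a was higher by 1.10 and Hsph1 by 1.33, while Hspa8 (0.32) and Hspe1 (0.48) were not called. Each call held without any 1 library, except that Hsph1 could not be tested without the female library. Without the term for library 1 of the 17 subset calls remained, that of Hspe1 in subset 7. The median of the 7 members was 1.10 and that of all genes -0.02. The 26 network genes tested there had a median of -0.05.

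Subset 3, called M1-like from inflammatory markers, had Hspa1a at 2698, 1775 and 1522 CPM (1.20, SE 0.23, adjusted p = 0.000494) and Hspa1b (1.24, SE 0.22, adjusted p = 0.000122) higher, where 5.03% of genes were. Its median cell held 44.1%, 69.1% and 63.3% tear-product UMIs, against 24.3%, 51.8% and 45.3% in subset 0, and in the female library and male library 1 it held 1472 and 394 UMIs outside tear-product and mitochondrial genes against 2445 and 803. Their part in the result was not tested. The Trem2-like subset 4 had both lower, Hspa1a at 1012, 361 and 255 CPM (-1.03, adjusted p = 0.00371) and Hspa1b (-0.78, adjusted p = 0.0160), where 9.77% of genes were lower, and Hspa1b was not called without male library 1 (adjusted p = 0.0726) or the female library (adjusted p = 0.138). Subset 8, unnamed and led by Gpnmb and Clec4e, had only 26, 32 and 28 cells and the lowest Hspa1b, at 353, 64.6 and 74.5 CPM (-2.32, SE 0.35, adjusted p = 5.60e-06), with Hspa1a at -1.22, where 8.47% of genes were lower. In subset 1, M1-like, Hspa1b (0.63) and Dnajb1 (0.80) were higher, where 12.3% of genes were. In subset 5, also M1-like, Hspa1b (-0.77) and Hsph1 (-1.12) were lower, where 2.99% of genes were. In the M2-like subset 7 Hspa1b (0.64) was higher and Hspe1 (-0.78) lower, where 14.1% and 12.4% of genes were. Each of these 6 calls was lost without at least 1 library, Dnajb1 in subset 1 without the female library (adjusted p = 0.318), Hsph1 in subset 5 without male library 1 (adjusted p = 0.182) and the others without either of 2 libraries (adjusted p = 0.0548 to 0.420).

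**Figure D5:**
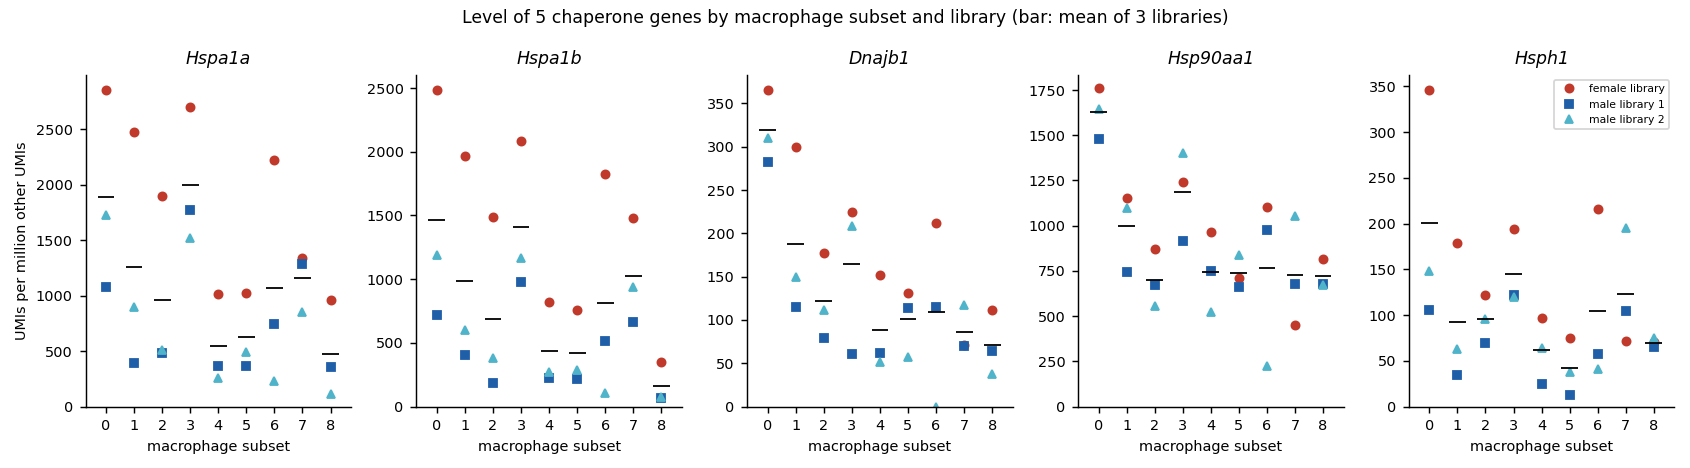
Level of 5 members in the Mφ subsets, in CPM, with 1 point per library and a bar at their mean. Subset 0 lies high for Dnajb1 (319 ± 42.3) and Hsp90aa1 (1629 ± 140), and subset 8 low for Hspa1b (164 ± 164).

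Across single cells, the 9 members together made up over 2% of the UMIs outside tear-product and mitochondrial genes in 90, 16 and 23 Mφ, or 6.21%, 2.37% and 3.73% of them. In Ltf+ cells, where Cryab weighs most, the numbers were 0, 46 and 18, and in duct cells 42, 19 and 20. In acinar cells they were 1, 3 and 1.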

How the data were processed

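The deposited files hold whole-number UMI counts per gene and barcode, which the authors made with Cell Ranger 6.1.2 and the mm10 genome from 10x 3′ libraries, as filtered and as raw matrices. Kept barcodes held over 500 UMIs, over 200 detected genes and a mitochondrial share under 15%, and 646, 287 and 315 likely doublets were removed with scrublet (scanpy 1.11.5). Cells were integrated and clustered in Seurat 5.3.0 (sctransform 0.4.2) without 345 genes, among them the members, their network and immediate early genes, and clusters were named from markers. Free RNA was estimated from uncalled barcodes of 500 to 2000 UMIs. UMIs summed per class and library were tested with edgeR 4.0.16 (quasi-likelihood, TMM, library as a term), two-sided, and called at a Benjamini-Hochberg adjusted p under 0.05 over all genes tested. All class contrasts share the same 3 libraries. Values after ± are SDs over the 3 libraries, and SEs were derived from the edgeR fits. Shares of cells used cells thinned to 200 UMIs outside tear-product and mitochondrial genes. Named genes were the 9 members, the network genes with the largest called changes and the 3 genes outside the members nearest to each of them. The members, gene lists and comparisons were chosen with earlier results of these data known. The steps were tested on simulated counts. Alternatives included RLE factors, other totals, DESeq2 1.42.0, no filter, no library term and leaving out each library.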

Additional observations from a re-analysis of the deposited data

Results flagged for a closer look

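In mural cells, Dnajb1 was lower than the mean of the other non-epithelial classes in the female library, at -1.10 on the log2 scale of the levels, and higher in both male libraries, at 0.55 and 0.86. In Car6-high cells, Cryab was lower than the mean of the other epithelial classes in the female library, at -1.07, and higher in both male libraries, at 1.22 and 1.23. Both were picked out because the only female library moved one way and both male libraries the other. The differences were not tested, and sex, day and sequencing core cannot be told apart. The female library held 50 mural cells and 55 Car6-high cells.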

How the results depend on the processing

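Of 124 calls, 28 were kept under every alternative that gave a value and 43 under every one but the fit without the library term. That fit alone kept 46 of the 124. The epithelial count of 28 calls became 43 on total UMIs, and the non-epithelial count of 22 became 14 on UMIs outside tear-product and mitochondrial genes with no factors. The 17 calls of the Mφ subsets became 1 without the library term and 8 with free RNA of 10 to 100 UMI barcodes subtracted, and 11 to 21 when 1 library was left out. The 30 calls of the immediate early gene division became 12 with DESeq2, 1 without the library term and 13 with that free RNA subtracted, and 18 to 25 when 1 library was left out. The 21 calls of the Hspa1a and Hspa1b division became 10 with DESeq2, 13 with no filter on low counts, 0 without the library term, 10 with free RNA of 10 to 100 UMI barcodes and 11 with that of 500 to 2000 UMI barcodes subtracted, and 13 to 17 when 1 library was left out. On UMIs of all genes 4 of 9 members kept their highest class. The median share of cells with a member UMI was 8.03%, and 13.9% on cells thinned to 1000 UMIs and 26.5% with no thinning. Values that changed sign on total UMIs were Hspe1 in acinar cells (-1.59), Cryab in MECs (0.48) and Hspe1 in the acinar immediate early gene division (0.20). In that acinar division, the list without Fos, Jun, Junb, Egr1 and Atf3 gave Hsp90aa1 -0.068, Hsph1 -0.0088, Hspb1 -0.99 and Cryab -0.19, and thinning to 1000 UMIs gave Hspb1 -1.34 and Cryab -0.35. When 1 library was left out, the immediate early gene division of fibroblasts gave -0.44 to 0.93 for Hsph1 and -0.050 to 0.78 for Hspb1, negative without the female library. Without the mast cell cluster, left out after seeing the data, the Dnajb1 level of other myeloid cells was -0.45 from that of Mφ. The causes were not tested. Scaling moved the median of all genes by up to -2.13 (acinar cells, total UMIs). The 500 to 2000 UMI profile and the removal of 1 acinar cell, which lost 8 of 124 calls, were chosen after seeing the data. Classes and arms were compared within libraries through the library term. No block on replicate numbers was fitted because no test compared the female with the male libraries, which share only number 1. Hsph1 had the fewest UMIs, and mural and Car6-high cells were the smallest classes, which limits their precision.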

Other observations

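Clusters that no marker list named held further chaperone UMIs. An unnamed epithelial cluster of 289, 206 and 242 cells in the female library and male libraries 1 and 2 had Hspa1a at 2531, 208 and 200.3 UMIs per 1000000 UMIs outside tear-product and mitochondrial genes, Hspa1b at 2674, 479 and 312, Dnajb1 at 345, 38.6 and 70.7 and Hsp90aa1 at 1530, 394 and 324. The female library was far above both male ones for each of these genes, and its cells there were shallow, with a median of 329 such UMIs per cell. An unnamed leukocyte cluster of 307, 95 and 88 cells, led by Areg, Gata3 and Csf2, had Hspa1a at 88.4, 139 and 0 and Hspa1b at 196, 223 and 237. The authors used these 3 genes, among others, to name innate lymphoid cells. The best list of this cluster was lymphoid, at a score of 0.21 where a name required 0.5. In the clusters of the lymphoid class Hspa1a ran from 582 to 850 in the female library. It ran from 105 to 724 and from 290 to 486 in male libraries 1 and 2.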
